A study of Saccharomyces cerevisiae with 19 samples.

Results

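The tricarboxylic acid cycle was followed through 10 genes of budding yeast, chosen by name for the enzymes they encode: CIT1 (YNR001C, citrate synthase), ACO1 (YLR304C, aconitase), IDH1 and IDH2 (YNL037C and YOR136W, NAD-dependent isocitrate dehydrogenase), KGD1, KGD2 and LPD1 (YIL125W, YDR148C and YFL018C, alpha-ketoglutarate dehydrogenase), LSC1 (YOR142W, succinyl-CoA ligase), FUM1 (YPL262W, fumarase) and MDH1 (YKL085W, malate dehydrogenase). They are 10 of 5758 genes with reads in the tables. All 10 had reads in each of the 19 libraries, passed the filter on low counts and were tested in every comparison. The rule that names them uses no measured value, though earlier results of these data were known.

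The series compares ways of making sequencing libraries from ribosome footprints, the stretches of mRNA that a translating ribosome shields from nuclease, and from mRNA. The 13 footprint libraries fell into DualLigation (n = 3), Nonrandom low, 4+3N low, 4+3N, 4N and Nonrandom (n = 2 each), and the 6 mRNA libraries into 4+3N, 4N and Nonrandom (n = 2 each). By the series' design text the preparations combine linkers and reverse transcription primers that are randomized or not, but the labels spell out neither the oligonucleotides behind each name nor what low means. 4+3N, 4N and Nonrandom footprints are called the standard footprint libraries below. All 9 groups share the same cells: strain BY4741, labelled wild-type, a MATa laboratory strain lacking functional HIS3, LEU2, MET17 and URA3. It was grown in YPD, a rich glucose medium, starting at an OD600 of 0.02 and harvested at 0.4, with cycloheximide, an inhibitor of elongation, added for 1 min. Cycloheximide was also in the lysis buffer at 100 µg/ml, and footprints of 28 to 32 nt were kept. Levels therefore describe dividing, fermenting cells treated with an elongation inhibitor. The labels do not say that replicates came from separate cultures, so all p-values measure only the spread between these samples, which may be technical.

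The cycle runs in the mitochondrial matrix. Acetyl-CoA joins oxaloacetate to make citrate, and a round of dehydrogenases and a ligase returns oxaloacetate while reducing NAD and FAD and making a nucleoside triphosphate. In yeast growing on glucose many of its genes are partly repressed, and the early steps still supply alpha-ketoglutarate for glutamate synthesis.

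Counted reads per library ran from 827353 in a 4+3N low library to 13478946 in a DualLigation library, and the lowest count of any of the 10 genes was 111, whose counting error is 9.49%. LEU2 had 1 read in all libraries together and URA3 and MET17 had 0, while HIS3, deleted only in part in this strain, had 58.3 to 123 CPM (reads scaled to the library's total of counted reads). STE2, a receptor of a cells, had 123 to 797 CPM, and STE3, a receptor of alpha cells, at most 7.61 CPM. The biological coefficient of variation was 21.2% in the fit with DualLigation and 6.44% in the fit of the standard footprint libraries alone.

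By the R64 (sacCer3) annotation none of the 10 coding genes overlapped another annotated gene. On chromosome XIV lay CIT1 (629622 to 631061) and IDH1 (557920 to 559002), and on chromosome XV IDH2 (580250 to 581359) and LSC1 (593057 to 594046). ACO1 lay on chromosome XII (735212 to 737548), KGD1 on IX (122689 to 125733), KGD2 on IV (753675 to 755066) and LPD1 on VI (101628 to 103127). FUM1 lay on chromosome XVI (47336 to 48802) and MDH1 on XI (279123 to 280127). Their coding lengths ran from 990 bp (LSC1) to 3045 bp (KGD1). Together they took 0.133% ± 0.0143 of reads in DualLigation (SD, n = 3), 0.373% ± 0.0175 in the low libraries (n = 4), 0.393% ± 0.00997 in the standard footprint libraries (n = 6) and 0.321% ± 0.0169 in mRNA (n = 6).

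Levels per length were compared as RPKM, which here is CPM per coding kilobase, with no further scaling. In the standard footprint libraries IDH2 and ACO1 stood highest, at 561 ± 46.0 and 560 ± 24.7 RPKM (SD, n = 6), and their libraries overlapped. IDH1 followed at 321 ± 11.8 RPKM, clear of both neighbours. LSC1 (245 ± 13.2) and LPD1 (238 ± 13.5) overlapped each other, as did MDH1 (170 ± 16.3), FUM1 (163 ± 8.02) and KGD2 (149 ± 5.42) from one neighbour to the next. CIT1 (124 ± 4.36) and KGD1 (82.5 ± 3.07) closed the order, each apart from the gene above it. The span between IDH2 and KGD1 was 6.79-fold. In DualLigation IDH2 (325 RPKM), IDH1 (172) and ACO1 (101.3) led, and from ACO1 down to CIT1 (29.8) each gene overlapped the next. With TMM library sizes these levels were 554, 278, 166 and 48.1 RPKM, over 1.5 times as high.

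In mRNA the span was wider, 19.4-fold, again between IDH2 (517 ± 32.8 RPKM) and KGD1 (26.7 ± 4.10 RPKM, SD, n = 6). ACO1 (407 ± 33.6) and IDH1 (267 ± 13.9) kept the next ranks. MDH1 (211 ± 8.22), FUM1 (193 ± 11.2), LPD1 (187 ± 9.79) and LSC1 (178 ± 8.76) overlapped from one neighbour to the next, ahead of CIT1 (158 ± 10.7) and KGD2 (93.3 ± 8.68). Against the 5754 genes with a length, KGD1 stood at the 74.3rd percentile by footprints and at the 29.9th by mRNA, below the median mRNA level of 45.2 RPKM. The other 9 genes lay at or above the 81.1st percentile in footprints and the 73.5th in mRNA.

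**Figure D1:**
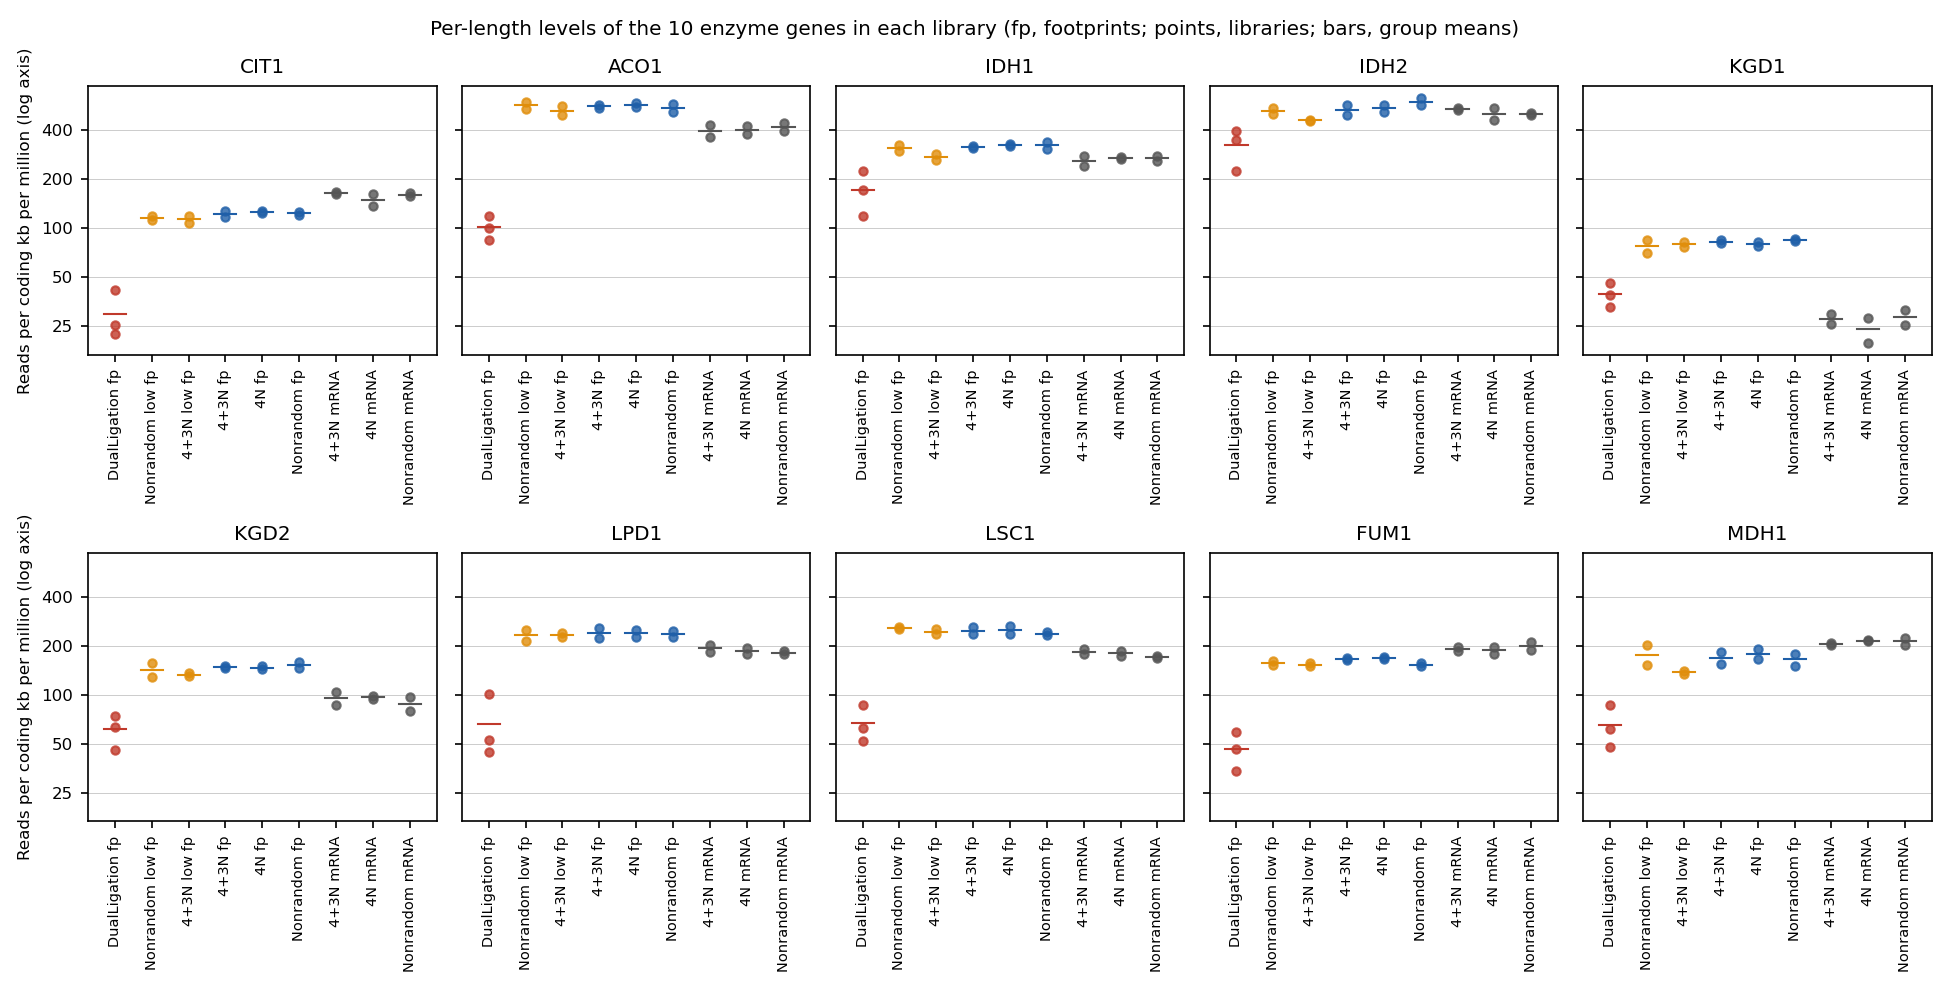
Per-length level (RPKM, log axis) of each gene in the 19 libraries; points are libraries, bars are group means, fp marks footprints. DualLigation lies below every other footprint group for all 10 genes, and KGD1 is the gene whose mRNA lies farthest below its footprints.

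The comparison of footprints with mRNA asks how densely ribosomes sit along a message relative to its abundance, not how many each message carries. In the mean over 4+3N, 4N and Nonrandom (6 against 6 libraries, scaled by TMM), all 10 genes were higher in footprints, where 40.2% of the 5523 genes tested were higher and 44.5% lower, but CIT1, FUM1 and MDH1 turned lower with library totals in place of TMM. With the other listed counts of Nonrandom footprints replicate 1, 9 of the 10 passed, MDH1 being lost at 0.18 (edgeR adjusted p = 0.0597). The median of the 10 was 0.86 on the log2 scale, against −0.04 for all genes tested. With library totals the 2 medians were 0.31 and −0.59. A change of scaling moves all genes by nearly the same amount, so their distance, 0.90 under both, could hardly change. Library totals also moved the share of higher genes among all calls to 19.9%, against 47.5% with TMM. The log2 ratios of single genes below are under TMM unless library totals are named. They therefore lie higher than the unscaled RPKM values beside them would give.

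Citrate synthase and aconitase make citrate and turn it into isocitrate. CIT1 had a lowest, median and highest level of 117, 126 and 128 RPKM in standard footprints, against 137, 163 and 166 RPKM in mRNA. Its 2 ranges did not overlap, with footprints lower on this scale. Relative to TMM it was higher by 0.20 (SE 0.05, edgeR adjusted p = 0.00161), and with library totals it was lower, at −0.35 (adjusted p = 3.99e-06). ACO1 had 517, 565 and 585 RPKM in standard footprints, against 362, 411 and 446 RPKM in mRNA. All 6 footprint libraries lay above all 6 mRNA libraries, and under TMM the log2 ratio was 1.01 (SE 0.06, edgeR adjusted p = 8.12e-12).

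Isocitrate dehydrogenase is built of a regulatory subunit, IDH1, and a catalytic one, IDH2. IDH1 had 307, 319 and 340 RPKM in standard footprints, against 242, 271 and 279 RPKM in mRNA, with no overlap. Its log2 ratio under TMM was 0.82 (SE 0.05, edgeR adjusted p = 3.84e-11). IDH2 had 499, 570 and 630 RPKM in standard footprints, against 462, 524 and 547 RPKM in mRNA, and these ranges overlapped. After TMM scaling its log2 ratio was 0.67 (SE 0.06, adjusted p = 3.63e-09).

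Alpha-ketoglutarate dehydrogenase, which makes succinyl-CoA, has an E1 subunit (KGD1), an E2 subunit (KGD2) and the E3 subunit LPD1, which also serves pyruvate dehydrogenase. KGD1 had 81.1 and 84.7 RPKM in 4+3N footprints, 77.3 and 82.3 in 4N and 86.1 and 83.5 in Nonrandom. Its mRNA had 29.8 and 25.8 RPKM in 4+3N, 27.9 and 19.8 in 4N and 31.5 and 25.4 in Nonrandom. Each footprint library thus lay above every mRNA library. Under TMM the log2 ratio of 2.18 (SE 0.07, edgeR adjusted p = 6.46e-16), 4.52-fold, was at the 99.4th percentile of all genes tested. KGD2 had 143, 148 and 158 RPKM in standard footprints, against 79.9, 95.4 and 104 RPKM in mRNA, and a log2 ratio of 1.23 (SE 0.06). LPD1 had 224, 237 and 256 RPKM in standard footprints, against 177, 185 and 202 RPKM in mRNA, and a log2 ratio of 0.90 (SE 0.05). Neither gene's ranges overlapped, so the 3 subunits shared a direction and differed in size.

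LSC1, the alpha subunit of succinyl-CoA ligase, had 232, 239 and 263 RPKM in standard footprints, against 168, 176 and 190 RPKM in mRNA. These ranges were apart, and under TMM the log2 ratio was 1.00 (SE 0.05, edgeR adjusted p = 1.63e-13). Fumarase and malate dehydrogenase close the cycle. FUM1 had 151, 164 and 172 RPKM in standard footprints, against 179, 192 and 211 RPKM in mRNA. MDH1 had 151, 172 and 191 RPKM in standard footprints, against 202, 211 and 224 RPKM in mRNA. Both had every footprint library below every mRNA library on this scale. With TMM scaling both were higher, FUM1 at 0.30 (SE 0.05, adjusted p = 1.08e-05) and MDH1 at 0.24 (SE 0.07, adjusted p = 0.00367), and with library totals both were lower, at −0.25 and −0.31.

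In counts per library total, 6 of the 10 genes thus had all footprint libraries above all mRNA libraries (12.5% of 5755 genes) and 3 had all of them below (59.4%), with IDH2 overlapping. Under TMM the ratio was highest for KGD1, followed by KGD2, by ACO1 and LSC1 at nearly the same value, and by LPD1, IDH1 and IDH2, with FUM1, MDH1 and CIT1 last.

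By preparation, 9 genes were higher in 4+3N (34.9% of all genes tested), 10 in 4N (35.3%) and 7 in Nonrandom (34.9%) under TMM. CIT1 did not pass in 4+3N (0.16, SE 0.09, edgeR adjusted p = 0.121), and CIT1 (0.14), FUM1 (0.14) and MDH1 (0.16) did not pass in Nonrandom (adjusted p = 0.157, 0.128 and 0.25). With library totals CIT1 and MDH1 were lower in all 3 preparations and FUM1 in 4+3N and Nonrandom, while IDH2 was no longer called in 4+3N (−0.01) or 4N (0.11). With the replicate block these 4 values passed (CIT1 0.16 in 4+3N, adjusted p = 0.0302, and CIT1 0.14, FUM1 0.14 and MDH1 0.15 in Nonrandom, adjusted p = 0.0398, 0.022 and 0.0249). KGD1 varied little between preparations, with log2 ratios of 2.17 (SE 0.12) in 4+3N, 2.25 (SE 0.12) in 4N and 2.11 (SE 0.11) in Nonrandom. With the other listed counts of Nonrandom replicate 1 these counts were 7 in 4+3N, 7 in 4N and 4 in Nonrandom. IDH2 (edgeR adjusted p = 0.13) and MDH1 (0.083) lost their calls in 4+3N, CIT1 (0.0548), IDH2 (0.0835) and MDH1 (0.104) in 4N, and ACO1 (0.411), IDH1 (0.103) and IDH2 (0.565) in Nonrandom. DESeq2 also ended the call of MDH1 in 4N (adjusted p = 0.0519). Calls near the threshold also hung on single libraries. MDH1 lost its call in 4+3N without 4+3N replicate 1 (0.13, edgeR adjusted p = 0.411) or without 4+3N mRNA replicate 1 or 2 (adjusted p = 0.0845 and 0.159). In 4N it lost it without 4N replicate 1 (0.12, adjusted p = 0.436) or without each of the 6 mRNA libraries (adjusted p from 0.054 to 0.194). CIT1 lost its call in 4N without 4N mRNA replicate 2 (0.21, adjusted p = 0.0894) and gained one in 4+3N without 4+3N replicate 2 (0.26, adjusted p = 0.0348).

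The ratio itself was tested for a difference between preparations. For 4+3N over Nonrandom 0 of the 10 genes passed in edgeR (0.0543% of all genes; 0 of the 10 at an unadjusted p under 0.05), with values between −0.20 (IDH2) and 0.23 (FUM1) and 95% intervals between −0.50 and 0.51. For 4N over Nonrandom 0 of the 10 passed as well (0% of all genes, where 173 had an unadjusted p under 0.05 and DESeq2 called 2; 0 of the 10 at an unadjusted p under 0.05), with values between −0.16 (KGD2) and 0.25 (FUM1). DESeq2 gave the same count of 0 for the 10 genes in both.

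The low libraries were set over the mRNA of the same preparation. Nonrandom low footprints over Nonrandom mRNA had 7 of the 10 genes higher (30.8% of 5385 genes tested) and 4+3N low over 4+3N mRNA had 8 (29.5%), and with library totals these were 6 higher and 3 lower, and 5 higher and 4 lower. KGD1 led again, at 2.01 (SE 0.12) and 2.19 (SE 0.13). CIT1 passed in neither, at 0.05 (SE 0.11, edgeR adjusted p = 0.7) and 0.12 (SE 0.12, adjusted p = 0.396), nor did MDH1, at 0.25 (SE 0.12, adjusted p = 0.0545) and 0.08 (SE 0.14, adjusted p = 0.64). FUM1 passed in 4+3N low at 0.33 (SE 0.11, adjusted p = 0.00968) and not in Nonrandom low at 0.19 (SE 0.10, adjusted p = 0.102). FUM1 lost its call without 4+3N low replicate 2 (adjusted p = 0.115) or 4+3N mRNA replicate 2 (adjusted p = 0.0783). MDH1 gained one in Nonrandom low without Nonrandom low replicate 2 (adjusted p = 0.00226) or Nonrandom mRNA replicate 1 (adjusted p = 0.0372), with DESeq2 size factors in edgeR (adjusted p = 0.0474) and with no filter on low counts (adjusted p = 0.0473).

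**Figure D2:**
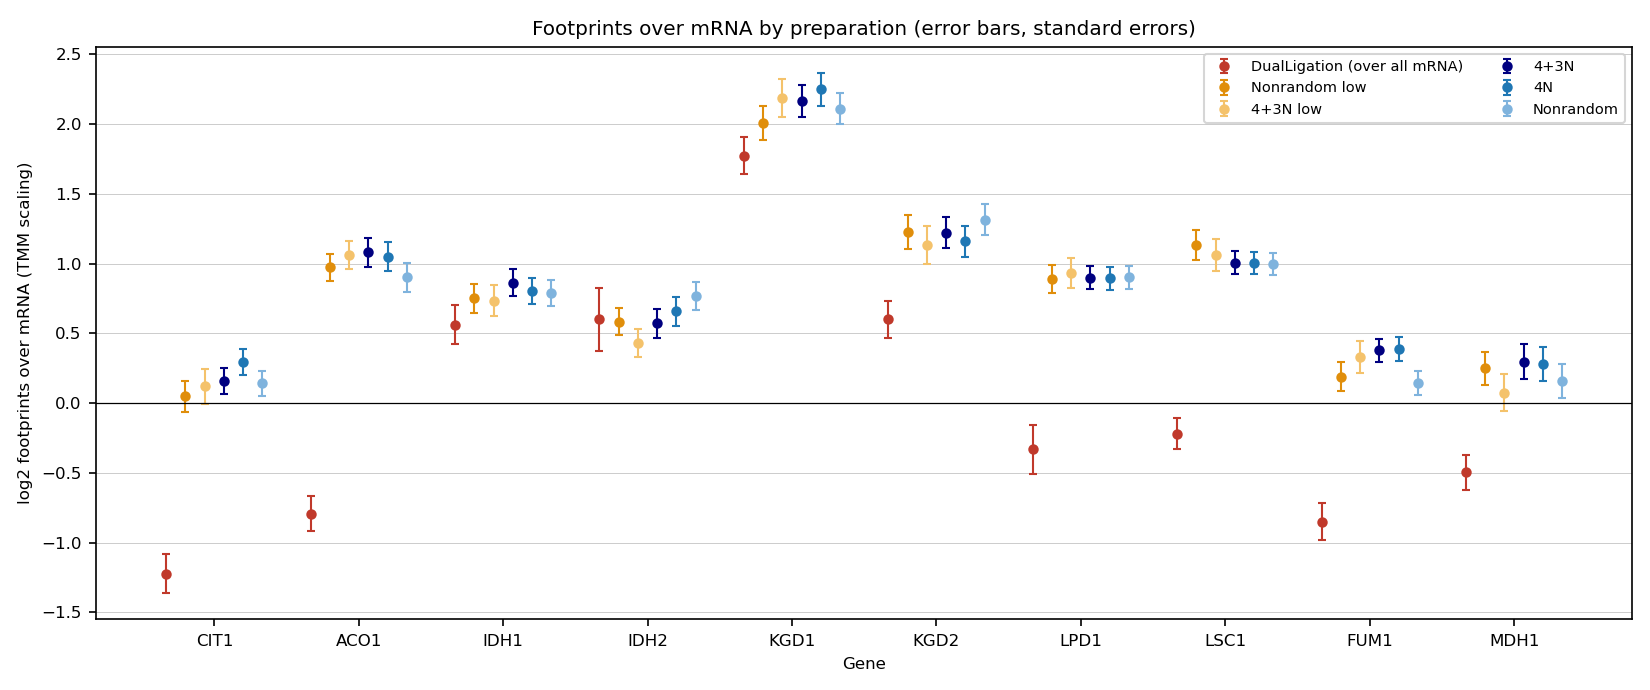
Log2 ratio of footprints over mRNA (TMM scaling) for each gene and preparation; points are fitted values, bars standard errors, DualLigation set over all mRNA libraries. KGD1 lies near 2 in every group, and DualLigation falls below the other 5 groups for 9 genes, with IDH2 inside their range; with library totals CIT1, FUM1 and MDH1 change sign in the other 5 groups, IDH2 in 4+3N and 4+3N low, and IDH1, IDH2 and KGD2 in DualLigation.

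A ratio of 2 genes inside one library does not depend on how libraries are scaled, so subunits of the same enzyme were set against each other per length. Exact two-sided permutation tests over libraries were adjusted over 10 tests, and the smallest p they allow is 0.00216 for 6 against 6 libraries. They take the libraries as exchangeable although equal replicate numbers go together within an assay. KGD2 over KGD1 was 1.81 ± 0.0871 in standard footprints and 3.57 ± 0.695 in mRNA (SD, n = 6 each), an exact permutation p = 0.00216 (adjusted p = 0.00541) with no overlap. LPD1 over KGD1 was 2.89 ± 0.153 in standard footprints and 7.12 ± 0.999 in mRNA, also at that smallest p. LPD1 over KGD2 was 1.61 ± 0.14 in standard footprints and 2.01 ± 0.147 in mRNA, again at the smallest p. This ratio follows from the other 2, so the 3 tests are not independent of each other. The 3 subunit genes of alpha-ketoglutarate dehydrogenase were thus closer in level in footprints than in mRNA, in each of 4+3N, 4N and Nonrandom.

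IDH2 over IDH1 was 1.74 ± 0.112 in standard footprints and 1.94 ± 0.16 in mRNA (SD, n = 6 each), with overlapping ranges (exact permutation p = 0.0368, adjusted p = 0.046). The log2 difference was −0.30 in 4+3N, −0.14 in 4N and −0.02 in Nonrandom. The adjusted p was above 0.05, at up to 0.0947, in 9 of 12 fits that left out 1 library: without either 4N or either 4+3N footprint library, 4+3N mRNA replicate 1 or 2, Nonrandom mRNA replicate 1 or 2, or 4N mRNA replicate 1. Succinyl-CoA ligase pairs LSC1 with the beta subunit LSC2. LSC2 was 89.0 ± 4.65 RPKM in standard footprints and 116 ± 3.20 RPKM in mRNA (SD, n = 6 each), and its log2 ratio of footprints over mRNA was 0.16 (SE 0.05, edgeR adjusted p = 0.00408) under TMM and −0.38 with library totals. LSC1 over LSC2 was accordingly 2.75 ± 0.115 in standard footprints and 1.54 ± 0.0393 in mRNA (exact permutation p = 0.00216, adjusted p = 0.00541). This pair was farther from equal levels in footprints than in mRNA, the opposite of the KGD subunits.

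**Figure D3:**
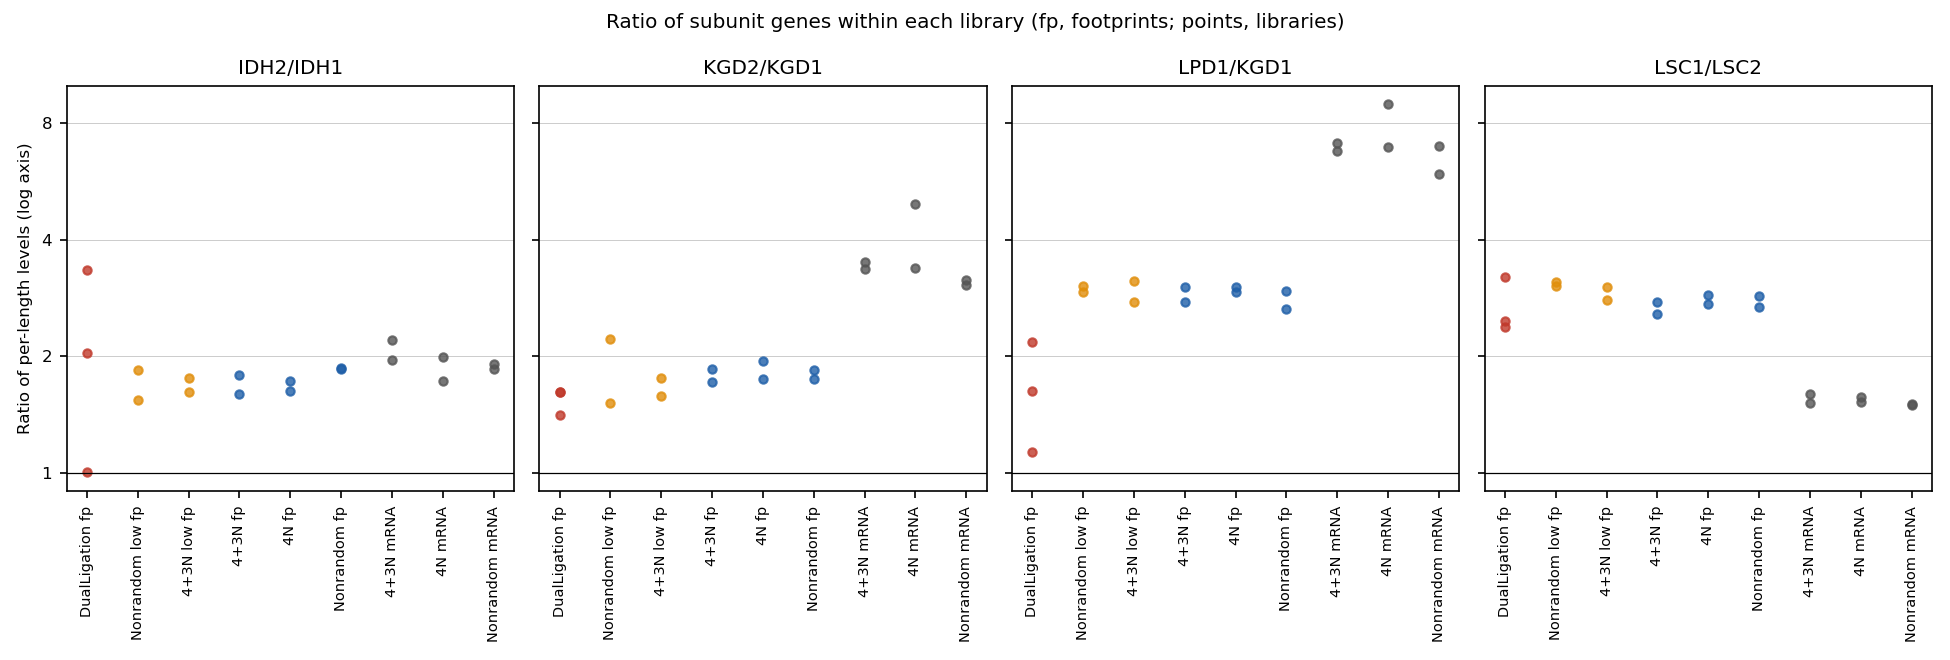
Ratio of per-length levels of subunit genes within each library (log axis); points are libraries, fp marks footprints. KGD2/KGD1 and LPD1/KGD1 are lower in all footprint libraries than in mRNA, LSC1/LSC2 is higher, and IDH2/IDH1 spreads between 1.00 and 3.34 in DualLigation.

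DualLigation stood apart from the other footprint libraries. Over the mean of 4+3N, 4N and Nonrandom, 8 of the 10 genes fell (32.6% of 5300 genes tested fell and 33.1% rose), with a median of −0.95 on the log2 scale against −0.05 for all genes, and with library totals all 10 fell (medians −1.60 and −0.71). Library totals moved the share of higher genes among all calls to 23.9%, against 50.4% with TMM. All 3 DualLigation libraries lay below all 6 standard footprint libraries in CPM for each of the 10 genes, as for 53.2% of 5664 genes.

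ACO1 fell most. It had 119, 99.9 and 85.1 RPKM in DualLigation, against 517, 565 and 585 RPKM as the lowest, median and highest of the standard footprint libraries. The log2 change was −1.80 (SE 0.12, edgeR adjusted p = 8.36e-06), 3.49-fold lower. CIT1 had 41.7, 22.3 and 25.6 RPKM in DualLigation, against 117, 126 and 128 RPKM in the standard footprint libraries, and fell by 1.42 on the log2 scale (SE 0.14, adjusted p = 5.97e-05). ACO1 and CIT1 thus had the lowest fitted values of the 10. The 95% interval of CIT1 (−1.75 to −1.10) overlapped those of LPD1 (−1.65 to −0.81), LSC1 (−1.47 to −0.98) and FUM1 (−1.44 to −0.87). Its rank below these genes is therefore not settled.

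LPD1 fell by 1.23 on the log2 scale (SE 0.18, edgeR adjusted p = 0.000489), LSC1 fell by 1.22 (SE 0.11, adjusted p = 3.26e-05) and FUM1 fell by 1.16 (SE 0.13, adjusted p = 8.85e-05). LPD1 was uneven within DualLigation, with 100.5, 44.3 and 53.0 RPKM. MDH1 fell by 0.74 (SE 0.15, adjusted p = 0.00298), KGD2 fell by 0.63 (SE 0.12, adjusted p = 0.00226) and KGD1 fell by 0.41 (SE 0.10, adjusted p = 0.00542). KGD1 had 46.0, 39.1 and 32.6 RPKM in DualLigation, which still lay above all 6 mRNA libraries.

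Both isocitrate dehydrogenase genes failed to pass under TMM. IDH1 had 224, 172 and 119 RPKM in DualLigation replicates 1, 2 and 3, and IDH2 had 225, 350 and 399 RPKM in the same libraries. Where IDH1 was high IDH2 was low, so that IDH2 over IDH1 was 1.00, 2.04 and 3.34 in replicates 1, 2 and 3. The log2 changes were −0.26 for IDH1 (SE 0.14, 95% interval −0.58 to 0.06, edgeR adjusted p = 0.133) and −0.07 for IDH2 (SE 0.24, −0.62 to 0.49, adjusted p = 0.823). Without DualLigation replicate 1, IDH1 passed at −0.35 (adjusted p = 0.0481) and IDH2 changed sign to 0.22 without passing (adjusted p = 0.126). With library totals both fell, IDH1 at −0.90 and IDH2 at −0.79.

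**Figure D4:**
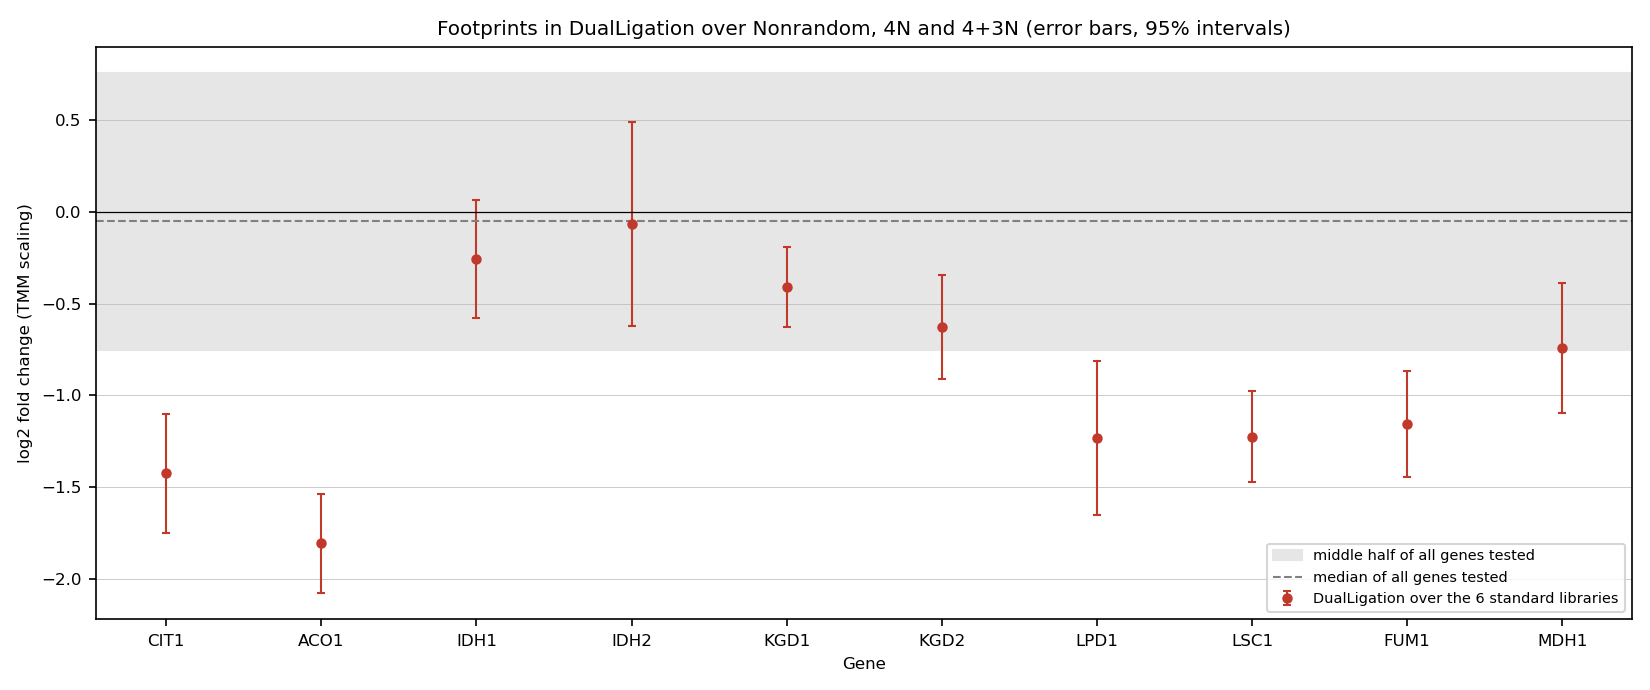
Log2 change of each gene in DualLigation over 4+3N, 4N and Nonrandom footprints (TMM scaling); points are fitted values, bars 95% intervals, the grey band the range between the quartiles of all genes tested. ACO1 and CIT1 lie lowest, and only the intervals of IDH1 and IDH2 reach 0; with library totals all 10 genes fall.

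As shares of the summed per-length level of the 10 genes, which no scaling can change, IDH2 took 21.2% to 44.6% in DualLigation, against 19.6% to 23.2% in the standard footprint libraries. ACO1 took 9.51% to 11.2% in DualLigation, against 20.4% to 22.0%. KGD1 took 3.65% to 4.33%, against 2.90% to 3.33%. LPD1 over KGD1 was 1.65 ± 0.527 in DualLigation (SD, n = 3) and 2.89 ± 0.153 in the standard footprint libraries (n = 6), an exact permutation p = 0.0119, which is the smallest for 3 against 6 libraries (adjusted p = 0.017). KGD2 over KGD1 was 1.55 ± 0.12 in DualLigation and 1.81 ± 0.0871 in the standard footprint libraries, and LPD1 over KGD2 was 1.07 ± 0.335 and 1.61 ± 0.14, both at the same exact permutation p = 0.0119. These 3 tests are again not independent of each other. LSC1 over LSC2 was 2.69 ± 0.45 in DualLigation and 2.75 ± 0.115 in the standard footprint libraries (exact permutation p = 0.631). IDH2 over IDH1, at 2.13 ± 1.17 in DualLigation and 1.74 ± 0.112 in the standard footprint libraries, did not pass either (exact permutation p = 0.56). Without DualLigation replicate 1 both passed, at log2 differences of −0.18 for LSC1 over LSC2 and 0.58 for IDH2 over IDH1 (exact permutation, adjusted p = 0.0368 each). Both were at the smallest p that so few libraries allow, since the DualLigation libraries left lay outside the range of the standard ones.

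DualLigation footprints were also set over the 6 mRNA libraries, a comparison that shares its 3 DualLigation libraries with the one above. No mRNA group is labelled DualLigation, so preparation and assay differ together here. Under TMM 4 genes were higher (35.4% of 5464 genes tested), namely KGD1 at 1.77 (SE 0.13), KGD2 at 0.60 (SE 0.13), IDH2 at 0.60 (SE 0.23) and IDH1 at 0.56 (SE 0.14), while library totals left KGD1 as the 1 higher gene and made 9 lower, IDH1, IDH2 and KGD2 included. CIT1 at −1.22 (SE 0.14), FUM1 at −0.85 (SE 0.13), ACO1 at −0.79 (SE 0.12) and MDH1 at −0.50 (SE 0.13) were lower under both scalings (39% of all genes were lower under TMM). LPD1 at −0.33 (SE 0.17, edgeR adjusted p = 0.112) and LSC1 at −0.22 (SE 0.11, adjusted p = 0.102) did not pass, and both were called lower without DualLigation replicate 1 (adjusted p = 0.000794 and 0.0211). IDH2 lost its call without DualLigation replicate 2 (adjusted p = 0.132), without replicate 3 (adjusted p = 0.162) and without each of the 6 mRNA libraries (adjusted p from 0.0621 to 0.0925).

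Between 4+3N, 4N and Nonrandom few of these genes could be told apart. For 4+3N over Nonrandom footprints 0 of the 10 passed in edgeR (0.304% of 5261 genes; 0 of the 10 at an unadjusted p under 0.05), with changes between −0.14 (IDH2) and 0.14 (FUM1). For 4N over Nonrandom 0 passed (0.133%; FUM1 alone of the 10 at an unadjusted p under 0.05), with changes between −0.12 (IDH2) and 0.16 (FUM1). With replicate numbers as a block, IDH2 fell in 4+3N at −0.14 (adjusted p = 0.0233) and FUM1 rose at 0.14 (adjusted p = 0.0495), where 490 of all genes passed against 16 without the block. IDH2 had 571 and 499 RPKM in 4+3N replicates 1 and 2, against 630 and 572.5 RPKM in Nonrandom. FUM1 had 163 and 169 RPKM in 4+3N, against 156 and 151 RPKM in Nonrandom.

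In mRNA 0 of the 10 passed in edgeR for 4+3N over Nonrandom (0.222% of 5415 genes; 0 of the 10 at an unadjusted p under 0.05), with changes between −0.12 (ACO1) and 0.08 (KGD2). For 4N over Nonrandom 0 passed (0.185%; 0 of the 10 at an unadjusted p under 0.05), with changes between −0.20 (KGD1) and 0.13 (KGD2). For low over standard footprints 0 of the 10 passed in Nonrandom (1.45% of 5174 genes; LSC1 alone at an unadjusted p under 0.05, 0.18, SE 0.08) and 0 in 4+3N (0.734%; 0 of the 10 at an unadjusted p under 0.05). Changes lay between −0.14 (IDH2) and 0.18 (LSC1) in Nonrandom low and between −0.18 (MDH1) and 0.10 (LSC1) in 4+3N low. DESeq2 called 0 of the 10 in each of these 6 comparisons. Over the 6, the 95% intervals of single genes lay within −0.52 to 0.43.

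**Figure D5:**
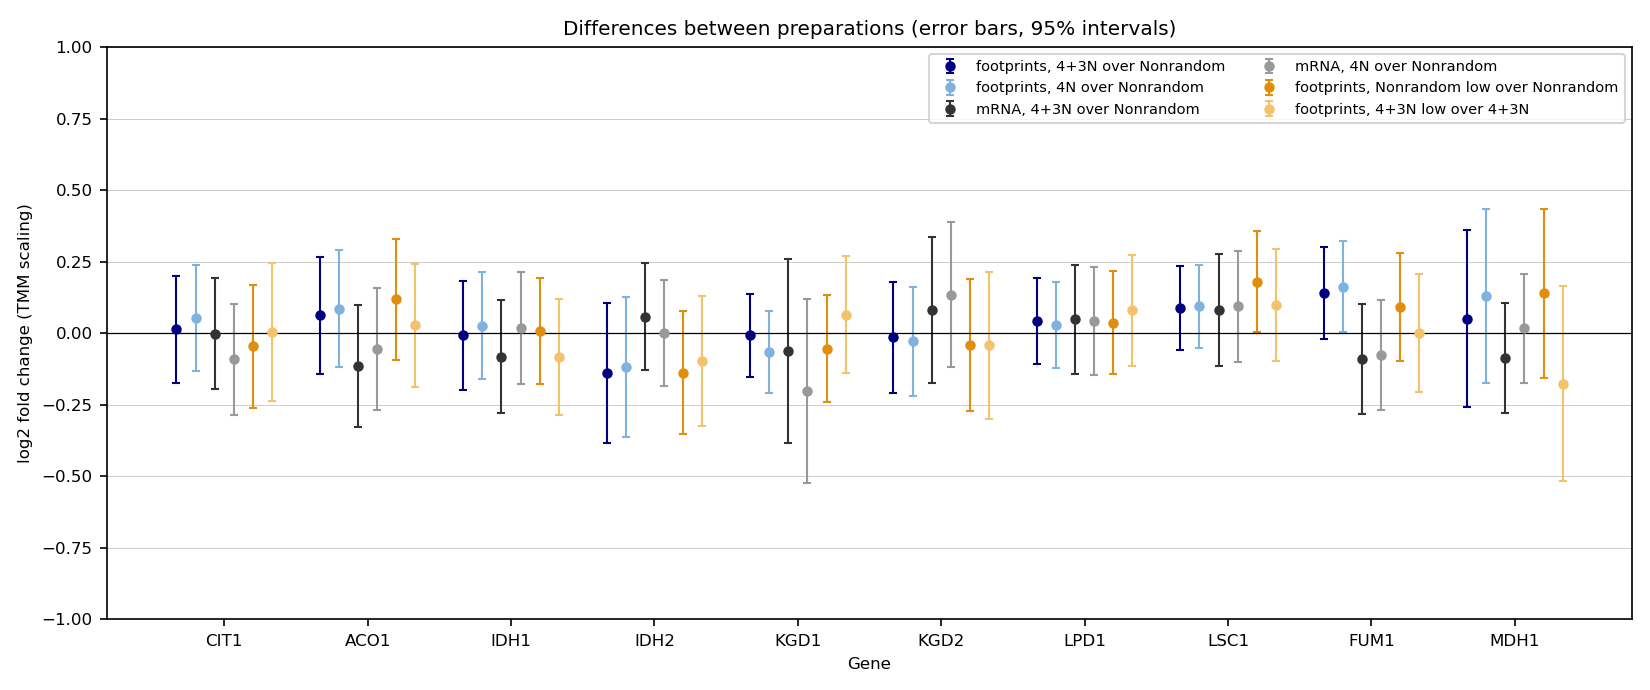
Log2 change of each gene between preparations (TMM scaling); points are fitted values, bars 95% intervals. All points lie between −0.20 and 0.18, and the intervals of all but FUM1 in 4N over Nonrandom footprints and LSC1 in Nonrandom low include 0.

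Genes around the cycle were described from 3 lists. Of 14 isozymes and remaining cycle enzymes 9 were higher and 5 lower in footprints over mRNA under TMM (median 0.14), and 2 higher and 10 lower with library totals (median −0.41). Among all genes 40.2% were higher and 44.5% lower under TMM. KGD4, a small subunit that ties E3 to alpha-ketoglutarate dehydrogenase, stood at 1.01 (SE 0.12), near LSC1 and ACO1, and was higher under both scalings. SDH3 (0.71, SE 0.07) and SDH1 (0.57, SE 0.07), of succinate dehydrogenase, and IDP1 (0.38, SE 0.05), the mitochondrial NADP-dependent isocitrate dehydrogenase, were higher under TMM, while with library totals SDH3 stayed higher (0.16), SDH1 was not called (0.02) and IDP1 was lower (−0.17). IDP2, the cytosolic NADP-dependent enzyme, had 0 to 3 reads in each standard footprint library, at the floor of 3 reads, against 22 to 46 reads in each mRNA library. CIT3, a minor mitochondrial citrate synthase, had 8 to 22 reads in standard footprints, against 18 to 48 in the shallower mRNA libraries, and a log2 ratio of −2.40 (SE 0.17).

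Of 9 genes for the entry of carbon 8 were higher and 1 lower under TMM (median 0.44), and 3 higher and 4 lower with library totals (median −0.11). In the pyruvate dehydrogenase complex, which LPD1 also serves, PDA1 (0.90, SE 0.05) and PDX1 (0.81, SE 0.07) were near LPD1 under TMM, and PDB1 (0.25, SE 0.04) and LAT1 (0.19, SE 0.06), named here after their values were seen, were farther below. With library totals PDA1 (0.35) and PDX1 (0.26) stayed higher and PDB1 (−0.30) and LAT1 (−0.36) were lower. The mitochondrial pyruvate carrier subunits split, with MPC1 at 0.80 (SE 0.08) and MPC2 at −0.74 (SE 0.08), in these directions under both scalings. PYC1 (0.44, SE 0.06) and PYC2 (0.32, SE 0.05), the pyruvate carboxylases that refill oxaloacetate, were higher under TMM, while with library totals PYC1 was not called (−0.11) and PYC2 was lower (−0.23).

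Of 9 regulators of cycle genes 4 were higher, 3 lower and 2 not called under TMM (median −0.02), and 1 was higher and 5 lower with library totals (median −0.57). MIG1, a glucose repressor, was higher under both scalings, at 1.05 (SE 0.10) under TMM. Under TMM alone so were RTG1 (0.64, SE 0.11) of the retrograde pathway and HAP2 (0.50, SE 0.12) and HAP3 (0.44, SE 0.09) of the HAP activator. HAP4 and HAP5, of the same activator and named here after their values were seen, were not among the 4 higher genes. In CPM, without TMM, HAP5 had a mean of 9.94 in standard footprints and 18.2 in mRNA. HAP4 had 26.4 and 39.4 CPM, both genes lying lower in footprints on this scale. HAP2 (20.3 and 20.8 CPM) and HAP3 (17.4 and 19.0 CPM) were nearly level on it. MKS1 (−0.82, SE 0.07) and RTG2 (−0.32, SE 0.07), which act against each other in the retrograde pathway, were both lower under both scalings.

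In DualLigation over the standard footprint libraries 3 of 13 isozymes tested rose and 8 fell under TMM (median −0.62), and 1 rose and 10 fell with library totals (median −1.27); the examples here were chosen after their values were seen. SDH1 rose under both scalings, by 1.47 (SE 0.22) under TMM, and IDP1 rose by 0.99 (SE 0.16) under TMM and was not called with library totals (0.29). CIT2, the peroxisomal citrate synthase, fell by 1.49 (SE 0.11), close to CIT1, and LSC2 fell by 1.18 (SE 0.11), close to LSC1. Among carbon entry genes PYC1 and PYC2 rose by 1.57 (SE 0.12) and 1.19 (SE 0.10), and PDA1, PDB1 and PDX1 fell by 0.63, 1.08 and 0.87 (2 of 9 rose and 3 fell under TMM, 2 and 6 with library totals). Among regulators MIG1 rose by 3.10 (SE 0.28) and MKS1 by 1.02 (SE 0.14) under TMM, where 3 of 9 rose and 3 fell. With library totals 1 rose and 5 fell, and MKS1 was not called (0.34).

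The mean profile of the 10 genes over the 9 groups, as log2(CPM + 1), was most closely followed by NFS1, a mitochondrial cysteine desulfurase, WWM1, a WW domain protein, VPS1, a dynamin-like GTPase, GPP1, a glycerol phosphate phosphatase, and GLO2, a cytoplasmic glyoxalase. Their Pearson r over the 9 groups lay between 0.997 (GLO2) and 0.9995 (NFS1), among 4282 genes. Pearson r compares the shape of profiles and not the size of their changes. WWM1 stood at 8.0 in Nonrandom footprints and 4.2 in DualLigation, and NFS1 at 7.6 and 5.5. All 5 were lowest in DualLigation, which follows from choosing them by their match to a mean profile that is low there. These are descriptions over groups that share one kind of cell. Of the 10 genes themselves ACO1 (0.998) and LPD1 (0.997) came closest to that mean, and KGD1 (0.442) was farthest from it.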

How the data were processed

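For every library (19 in all) the authors deposited raw counts of reads by gene, and genes not listed were set to 0. The submitters' processing notes name CASAVA 1.8, Bowtie 1.0.0 and sacCer3. Assignment to genes, use of strand and handling of multiply aligned reads are not given in the sources used here. The table of Nonrandom footprints replicate 1 lists 5559 genes more than once; the second count was used, since its total is larger (11656814, against 3520161 for the first) and it correlates better with replicate 2 (r of log2 CPM 0.997, against 0.959), and the first is an alternative. Of 5758 identifiers 5754 matched R64, which gave the coding lengths.

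Counts were filtered (filterByExpr), scaled by TMM and tested with edgeR 4.0.16 under R 4.3.3 (quasi-likelihood F test, two-sided). Adjustment was by Benjamini-Hochberg over all genes tested, and a call needs an adjusted p under 0.05. Each SE was taken as the size of the log2 change divided by the root of its F value. DESeq2 1.42.0 was an alternative. The fits held both assays of 4+3N, 4N and Nonrandom, the standard footprint libraries, these with DualLigation, the low and standard libraries, and mRNA alone. Ratios to mRNA of the low libraries and of DualLigation had a fit each. The fitting script was tested on simulated data. Intervals and counting errors cover counting or these samples only. With 2 or 3 libraries per group, precision is limited by their number.

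The 10 genes and the 3 lists were chosen with earlier results of these data known. All 10 genes are named throughout, from each list up to 6 genes with the smallest p in footprints over mRNA, LSC2 beside LSC1, and the 5 genes with the profile most like the mean of the 10 among those with a mean of at least 20 CPM. Values of list genes in DualLigation were picked after they were seen. The result of 1 list gene is not reported here. The subunit ratios and library totals in place of TMM, for the lists too, were added after the data were seen.

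Equal replicate numbers were checked on deviations from group means over genes with a mean of at least 50 CPM. Their correlations were 0.632 to 0.776 among standard footprint groups (3 of 3 above 0.1) and 0.219 to 0.464 in mRNA (3 of 3). In the fit of low and standard groups they were 0.133 to 0.566 (6 of 6). The 0.566 was between Nonrandom and 4+3N, and pairs with a low group lay between 0.133 and 0.375. Replicate numbers thus pair libraries within an assay, least so between the low groups (0.133). Between assays 5 of 9 lay above 0.1, at up to 0.241, and no pairing between assays was fitted. The main fits held no replicate term, and the replicate block within each assay was an alternative.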

Additional observations from a re-analysis of the deposited data

Results flagged for a closer look

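For 4 genes the ratio of footprints over mRNA was higher in the mean of 4+3N, 4N and Nonrandom and lower in DualLigation (TMM scaling). DualLigation has no mRNA group of its own and was set over the same mRNA libraries, so preparation and assay differ together in its ratio. The difference between these footprints passed the edgeR test, which uses the same footprint libraries and is no separate support. In DualLigation over the standard footprint libraries CIT1 stood at −1.42, ACO1 at −1.80, FUM1 at −1.16 and MDH1 at −0.74 on the log2 scale. With library totals in place of TMM the ratios of CIT1, FUM1 and MDH1 were lower in both, and ACO1 kept opposite directions.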

How the results depend on the processing

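Of 589 alternatives for the main values 545 kept direction and side of the threshold, or a count within 1.5 times. The counts took calls in both directions together, so a turn from higher to lower was not scored as a change. For the mean footprints over mRNA, library totals gave 7 of the 10 genes higher and 3 lower, scored as kept. For single genes 1392 of 1514 alternatives kept direction and side of the threshold. Per-length levels among them had instead to move by less than the SD of their libraries. DESeq2 called 5 and 2 genes in the ratio of 4+3N and 4N over Nonrandom (3 and 0 in edgeR), and 27 and 11 in their footprints (16 and 7). With the replicate block these counts were 28 and 4 for the ratio and 490 (2 of the 10 genes) and 59 for footprints, with 199 for Nonrandom low over Nonrandom (75 without), 135 for 4+3N low over 4+3N (38) and 16 for mRNA 4N over Nonrandom (10). The block also called MDH1 in Nonrandom low over mRNA (edgeR adjusted p = 0.0305). In that fit 1 of 2 correlations within an assay lay above 0.1 (0.0833 between the low groups and 0.228 in mRNA). With DualLigation in the fit 2 and 1 genes passed in footprints of 4+3N and 4N over Nonrandom. Leaving out 1 library gave 3 to 5 and 0 to 1 genes for the ratio of 4+3N and 4N, 9 to 19 for 4+3N footprints, 36 to 89 and 20 to 48 for Nonrandom low and 4+3N low, and 1 to 8 for mRNA 4N. The low counts of Nonrandom low came without Nonrandom low replicate 1 (37) or 2 (36), those of 4+3N low without its replicate 1 (20) or 2 (21), that of 4+3N footprints without Nonrandom replicate 2, and those of mRNA 4N without Nonrandom mRNA replicate 1 (5), 4N mRNA replicate 1 (1) or 2 (4). The causes of these changes were not tested.

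With the other listed counts of Nonrandom replicate 1, 4 of the 10 genes passed in footprints over mRNA in Nonrandom (7 otherwise), with MDH1 at −0.037, and 26 and 14 genes passed in Nonrandom low and 4+3N low. IDH2 then stood at 0.34 in the ratio of 4+3N over Nonrandom, at 0.45 and 0.47 in footprints of 4+3N and 4N, at 0.46 in Nonrandom low and at 0.13 in DualLigation. In DualLigation KGD2 over KGD1 was −0.19 (exact permutation, adjusted p = 0.0744) and LSC1 over LSC2 was 0.038.

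Library totals in place of TMM, chosen after seeing the data, moved the median of all genes in footprints over mRNA by more than 0.5 on the log2 scale. CIT1, FUM1 and MDH1 then stood at −0.35, −0.25 and −0.31 in the mean, −0.43, −0.21 and −0.29 in 4+3N, −0.25, −0.16 and −0.27 in 4N, −0.38, −0.38 and −0.36 in Nonrandom, −0.48, −0.34 and −0.29 in Nonrandom low and −0.53, −0.32 and −0.58 in 4+3N low. IDH2 stood at −0.015 in 4+3N and −0.22 in 4+3N low, and LSC1 at −0.015 in 4+3N low over 4+3N. IDH1, IDH2 and KGD2 stood at −0.64, −0.67 and −0.61 in DualLigation over mRNA.

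Leaving out 1 library also turned the sign of some values. MDH1 in Nonrandom ranged from −0.0091 (without Nonrandom replicate 1) to 0.30, and CIT1 in Nonrandom low over mRNA from −0.024 (without Nonrandom low replicate 1) to 0.14. IDH2 in DualLigation was 0.22 without DualLigation replicate 1. In mRNA of 4+3N over Nonrandom, ACO1 ranged from −0.26 to 0.012 (without 4+3N mRNA replicate 2) and KGD2 was as low as −0.057 (without 4+3N mRNA replicate 1). In mRNA of 4N over Nonrandom KGD2 ranged from −0.0022 (without Nonrandom mRNA replicate 2) to 0.26. The subunit differences, also added after seeing the data, then ranged from −0.28 to 0.58 for IDH2 over IDH1 and from −0.18 to 0.032 for LSC1 over LSC2 in DualLigation, and from −0.19 to −0.11 for IDH2 over IDH1 in footprints against mRNA. Per-length levels with TMM library sizes were higher in footprints and lower in mRNA. IDP2, CIT3 and MPC3 had few reads: MPC3 had 5 to 10 in each mRNA library, and IDP2 at most 3 in each standard footprint library.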
